A study of Mus musculus with 2 samples.

Results

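Mir122, Mir216a, Mir216b and Mir217 are microRNA genes whose known main sites of expression lie in organs next to the gut, and their reads were followed here through RNA of the fetal mouse intestine. They were chosen by name as genes of the liver and the pancreas, and all 4 have a row among the 1973 miRNA gene rows of each library. The study sequenced small RNA below 30 nucleotides from intestine of B6NCrl mice at embryonic day 16.5, male and female embryos pooled, healthy and without treatment, with each of the 2 libraries labelled as a separate biological replicate. The pool of replicate 2 held 41 embryos, and the pool size of replicate 1 is not in the labels. There is 1 group, so the comparisons are among genes and between the libraries, and a p-value between the libraries measures counting error and not the spread expected between pools.

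MicroRNAs are cut from hairpin transcripts into mature strands of about the same length, and each guides the silencing of messenger RNAs that pair with its seed, the bases just behind its 5′ end. miR-122 is the dominant miRNA of hepatocytes, where it acts on lipid and cholesterol metabolism, and it is known to rise as the fetal liver matures. miR-216a, miR-216b and miR-217 are made from 1 chromosomal cluster and are known as miRNAs of the exocrine, enzyme-secreting acinar cells of the pancreas. The liver, the pancreas and the gut tube arise from neighbouring endoderm, the fetal liver is also a site of blood formation, and the ducts of the liver and pancreas open into the duodenum.

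The pancreatic members are shown first, because their sequences decide whether a read can be assigned to 1 gene. On GRCm38 (mm10) they lie on the plus strand of chromosome 11 in the order Mir216b (ENSMUSG00000076318, 28746191 to 28746276), Mir216a (ENSMUSG00000065539, 28757012 to 28757083) and Mir217 (ENSMUSG00000065415, 28763728 to 28763835). They span 17645 bases and are the 3 rows of the count tables within that span. In GENCODE M21, Mir216a and Mir217 lie in an intron of the long non-coding RNA Gm12082, while Mir216b lies upstream of it and overlaps the antisense gene Mir216c, which has no row. The mature strands of the RefSeq miRNA table (GRCm38.p6) follow, with the seed, bases 2 to 8 counted from the 5′ end, in capitals.
miR-216b-5p: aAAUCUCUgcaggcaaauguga
miR-216a-5p: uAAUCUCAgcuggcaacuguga
miR-217-5p: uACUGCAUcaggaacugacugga
miR-216b-3p: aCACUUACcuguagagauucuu
miR-216a-3p: cACAGUGGucucugggauuaug
miR-217-3p: cAUCAGUUccuaaugcauugccu

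The 5p strands of miR-216a and miR-216b are close relatives, identical at 18 of 22 positions. They differ by U1A, A8U, U11A and C17A (miR-216a base, position from the 5′ end, miR-216b base). A8U falls in the seed, so the seeds share 6 of 7 bases. None of these 6 seeds occurs in another of the 1679 mature names of the table, and the longest stretch shared with a mature strand of another gene was 9 or 10 bases. The hairpin of Mir217, the pancreatic member with the most reads, is shown with both mature strands in capitals, since a gene count takes in reads from either strand of the stem.
Mir217 hairpin: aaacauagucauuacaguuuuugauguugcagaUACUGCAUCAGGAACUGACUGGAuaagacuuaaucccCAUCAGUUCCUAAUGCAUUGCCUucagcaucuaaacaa

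Mir122 (ENSMUSG00000065402) lies on the plus strand of chromosome 18 (65248861 to 65248926), in an exon of the long non-coding RNA AC157910.3 in GENCODE M21. RefSeq also lists Mir122b within the same span. Reads on the opposite strand numbered 0 in both libraries at Mir122 and at each of the 3 pancreatic members, so no reads were counted on the strand of Mir216c.

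Replicate 1 held 4261976 counts on the strand of a miRNA gene and replicate 2 held 5680764. Levels are these counts divided by that total and multiplied by 1000000 (CPM), with exact Clopper-Pearson 95% intervals. Each interval rests on the counts of 1 library and covers counting error only. PCR copies of 1 molecule cannot be told from separate molecules, so the intervals may be too narrow even for that. CPM was not divided by length. The mature strands shown above, all of the pancreatic members, are 22 or 23 bases long, and no sequence of Mir122 was at hand. A gene with 0 counts is given a limit of 3 counts, which is 0.704 CPM of replicate 1 and 0.528 CPM of replicate 2. Multi-mapping reads (26.2% and 25.7% of each library) are outside the counts. Each level, ratio and list sum below therefore holds only for reads that map to 1 place. Markers of gut tissue were abundant: the gut epithelium list of the miR-200 family and Mir31 (6 of 6 genes with counts, 59751 and 63860 CPM summed) and the smooth muscle and mesenchyme list (7 of 7 genes with counts, 192291 and 182978 CPM summed). Across 364 tested genes the libraries had a Pearson r of 0.994 for log2(CPM + 1), a description across genes and not across samples.

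Mir122 was present at an intermediate level, and the pancreatic genes had few reads, most of them from Mir217 in replicate 2. Replicate 1 held 4235 counts of Mir122, or 994 CPM (964 to 1024 CPM). Replicate 2 held 2543 counts, or 448 CPM (430 to 465 CPM). The intervals did not overlap, and replicate 1 was the higher. The mean was 721 ± 386 CPM (SD, n = 2), or rank 109 by mean CPM, from rank 96 in replicate 1 and rank 121 in replicate 2. Mir122 reads made up 0.0994% of the gene counts in replicate 1 and 0.0448% in replicate 2.

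Mir217 was the most abundant pancreatic member, with 4 counts in replicate 1 (0.939 CPM, 0.256 to 2.40 CPM) and 23 counts in replicate 2 (4.05 CPM, 2.57 to 6.08 CPM). Its intervals did not overlap either, and here replicate 2 was the higher. Its mean was 2.49 ± 2.20 CPM (SD, n = 2), at rank 350. Mir216a had 1 count in replicate 1 (0.235 CPM, 0.00594 to 1.31 CPM) and 4 counts in replicate 2 (0.704 CPM, 0.192 to 1.80 CPM). Its libraries overlapped within counting error, with a mean of 0.469 ± 0.332 CPM (SD, n = 2). Mir216b had 2 counts in replicate 1 (0.469 CPM, 0.0568 to 1.70 CPM) and 0 counts in replicate 2, where the limit of 3 counts is 0.528 CPM and the upper end of the two-sided interval 0.649 CPM. It was at or below 3 counts in both libraries, with a mean of 0.235 ± 0.332 CPM (SD, n = 2). Counts this low were common in the tables: 219 of the 716 rows with any count had 1 to 5 counts over both libraries, Mir216a and Mir216b among them, and 1257 rows had none.

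**Figure D1:**
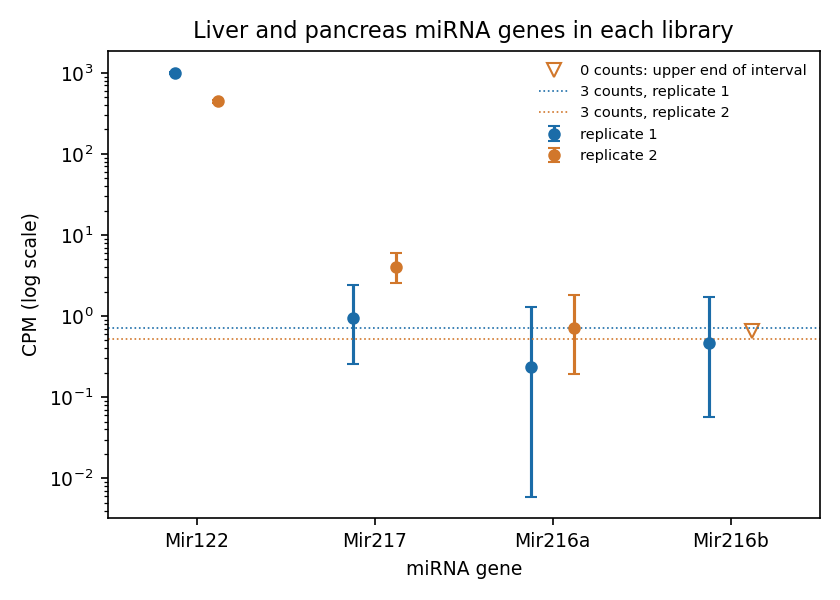
CPM of the 4 genes in each library on a log scale, with exact 95% intervals as bars, an open triangle at the upper end of the interval for 0 counts, and dotted lines at 3 counts in each library. Mir122 sits at 994 and 448 CPM, while the pancreatic genes sit between 0 and 4.05 CPM, with Mir217 in replicate 2 (4.05 CPM) clear of the dotted lines and the others around them.

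The order of the levels was Mir122, Mir217, Mir216a, Mir216b. Mir122 stood above all 3 pancreatic members in both libraries, with intervals that did not overlap theirs. It had 605 times the summed counts of the pancreatic genes in replicate 1 (7 counts, 1.64 CPM) and 94.2 times in replicate 2 (27 counts, 4.75 CPM). The rest of the order was not firm. Mir217 and Mir216a differed by less than the SD of Mir217, although in replicate 2 alone their intervals did not overlap, and Mir216a and Mir216b overlapped in both libraries. In a bulk sample such as this, fewer cells of a type and less RNA per cell cannot be told apart.

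Within the cluster, counts were uneven. From the start of Mir216b, the Mir216a hairpin lies 10821 bases and the Mir217 hairpin 17537 bases downstream, and Mir217, the farthest of the 3, held 57.1% of the cluster's 7 counts in replicate 1 (exact Clopper-Pearson 95% interval 18.4 to 90.1%) and 85.2% of its 27 counts in replicate 2 (66.3 to 95.8%). These intervals overlapped.

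**Figure D2:**
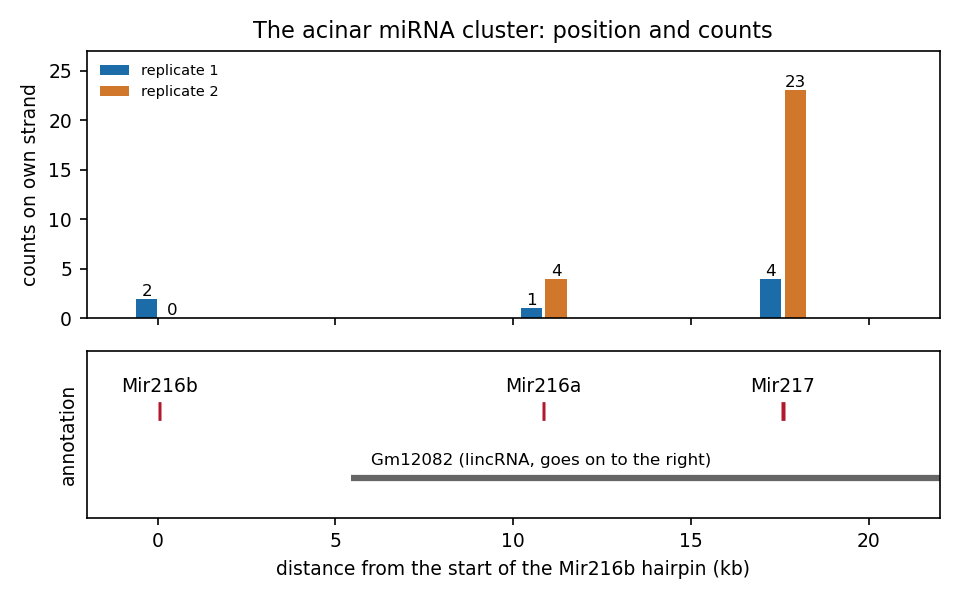
Counts on the strand of the gene in replicates 1 and 2 (bars, top) and the position of the hairpins and of Gm12082 (bottom) by distance in kb from the start of Mir216b. Mir217 has 4 and 23 counts, Mir216a 1 and 4, and Mir216b 2 and 0.

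Among all genes, Mir122 lay in the upper part of the order, and its rank was loosely fixed. The genes directly above it were Mir210, induced by low oxygen (746 ± 15.8 CPM), and Mir467c (732 ± 130 CPM). Directly below were Mir181b-2 (658 ± 133 CPM) and Mir7b, known from endocrine and neural cells (631 ± 39.1 CPM, each SD with n = 2). None of these neighbours differed from Mir122 by more than its SD, and 46 genes in all, from rank 91 to rank 137, had a mean within that SD. Of the genes shown beside it in the plot of the order of levels, the red-cell miRNA Mir451a (383 ± 79.6 CPM) was below Mir122 in both libraries but within its SD, and the gut and liver miRNA Mir192 was higher (7510 ± 8.79 CPM). Mir122 had 0.132 times the counts of Mir192 in replicate 1 and 0.0597 times in replicate 2.

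**Figure D3:**
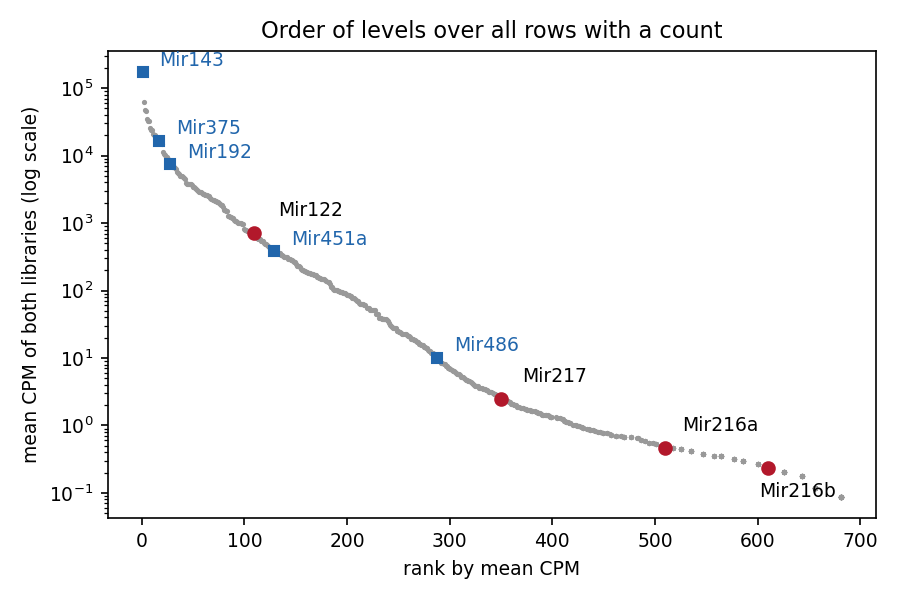
Mean CPM of both libraries (log scale) against rank for all 716 rows with a count, with the 4 genes as red circles and 5 other genes as blue squares. Mir122 stands at rank 109 between Mir192 and Mir451a, Mir217 at rank 350 below the erythroid Mir486, and Mir216a and Mir216b in the flat tail of the curve.

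The libraries differed at Mir122 in one direction and at Mir217 in the other. Genes with at least 20 counts over both libraries were compared with an exact binomial test (two-sided, conditional on the sum of both counts), scaled with TMM (a trimmed mean of ratios that sets the bulk of genes to no difference) and adjusted over all 364 tested genes. Of the 4 genes, 2 reached that minimum and both passed. The background was high: 51.9% of the tested genes passed, 27.5% as higher in replicate 1 and 24.5% as higher in replicate 2, so passing says little by itself and the size of the ratio says more. With total counts in place of TMM, which lowers every log2 ratio by 0.13, 45.1% passed as higher in replicate 1 and 12.6% as higher in replicate 2.

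For Mir122 the log2 ratio of replicate 2 to replicate 1 was -1.02 (counting interval -1.09 to -0.95, adjusted p of the exact test 1.65e-180). In unscaled CPM it was 2.22 times higher in replicate 1. The 20 genes closest to it in rank, 10 above and 10 below, had log2 ratios from -0.31 to 0.26 with a median of -0.02, and none was as far from 0. Among the other 189 tested genes with a mean of at least 100 CPM, the log2 ratios ran from -0.78 to 0.79, so Mir122 lay outside the range of all of them. Of all 364 tested genes, 23 had a ratio at least as far from 0, Mir122 counted, and the other 22 lay below 100 CPM.

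For Mir217 the log2 ratio was 2.10 (counting interval 0.69 to 4.23, adjusted p of the exact test 0.00375), the highest of the 364 tested genes. It came from 4 and 23 counts, so Mir217 reached the minimum of 20 counts through replicate 2. Some genes below that minimum had higher ratios, so the rank of Mir217 holds only among the tested genes. The 42 other tested genes with 20 to 40 counts had log2 ratios from -2.40 to 1.30, and 1 of them was as far from 0 as Mir217, in the other direction. Mir216a, with 1 and 4 counts, was 3.28 times higher in replicate 2 after TMM scaling, with a counting interval from 0.325 to 162 times. Mir216b was at or below 3 counts in both libraries, and no ratio is given for it. Neither had the 20 counts needed. With no count minimum, the exact test over 716 genes gave adjusted p-values of 0.66 for Mir216a and 0.437 for Mir216b.

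**Figure D4:**
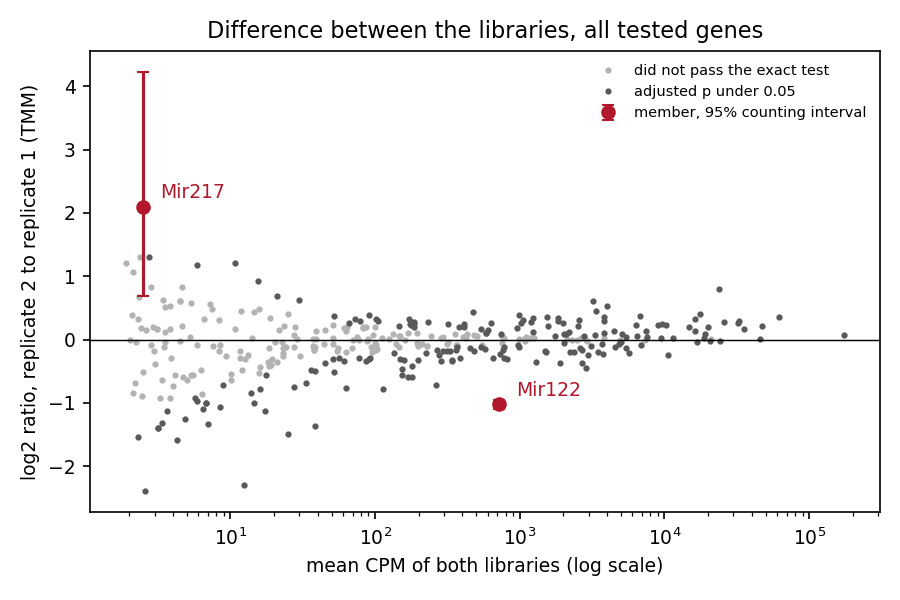
Log2 ratio of replicate 2 to replicate 1 (TMM) against mean CPM (log scale) for the 364 tested genes, darker where the exact test passed. Mir122 (-1.02) lies apart below the genes of its level, and Mir217 (2.10, with its wide 95% counting interval) lies at the top left, where counts are low and ratios spread widely.

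Whether the members differed from each other between the libraries can be tested without any scaling, from their counts alone. This comparison was chosen after the values were seen, and for Mir122 and Mir217 it restates the opposite ratios given above. Its p-values are no further evidence of a difference and measure counting error only. Across the 6 pairs of members, Fisher's exact test (two-sided, Benjamini-Hochberg over the 6) separated Mir122 from Mir217: the counts of Mir122 were 1059 times those of Mir217 in replicate 1 and 111 times in replicate 2, a 9.58-fold difference (adjusted p of the exact test 3.03e-06). The pairs of Mir122 with Mir216a (adjusted p 0.139, exact) and with Mir216b (adjusted p 0.637, exact) did not pass. Within the cluster, Mir216a and Mir217 (adjusted p 1, exact), Mir216a and Mir216b (adjusted p 0.214, exact) and Mir216b and Mir217 (adjusted p 0.111, exact; 0.0369 before adjustment) did not pass either. With 7 counts in replicate 1, the cluster holds too few reads to show whether its genes kept a common ratio.

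Genes were also ranked by how like Mir122 or Mir217 they were over the 2 libraries. By the distance between log2 ratios, the closest to Mir122 among genes of at least 100 CPM were Mir495 (-0.78), Mir350 (-0.72), Mir667 (-0.59) and the smooth muscle miRNA Mir490 (-0.59). Mir495 was at 148 and 78.3 CPM in replicates 1 and 2 and Mir350 at 337 and 187 CPM, both smaller differences than that of Mir122, at distances of 0.24 and 0.30. Genes below 100 CPM, whose ratios spread more widely, were left out of this ranking, and some of them lay nearer. The closest to Mir217 among all tested genes were Mir365-2 (1.30, from 7 and 22 counts), Gm24245 (1.30), Mir190b (1.22, from 29 and 83 counts) and Mir5619 (1.21). The nearest of them was 0.80 away. Likeness over 2 libraries rests on 1 ratio per gene.

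Markers of cells that share an organ with hepatocytes were set beside Mir122. The fetal liver also holds red-cell precursors, marked by Mir451a, which matures without Dicer, its cluster partner Mir144, and Mir486. The 3 erythroid genes with a row summed to 609 CPM in replicate 1 and 468 CPM in replicate 2. Mir451a was at 439 and 327 CPM (log2 ratio -0.30, adjusted p of the exact test 1.50e-09) and was the 1 erythroid gene of 3 that passed. Mir144 was at 157 and 133 CPM (-0.11) and Mir486 at 12.4 and 7.75 CPM (-0.55), and neither passed. Over all tested genes, 27.5% passed as higher in replicate 1. With total counts all 3 passed as higher in replicate 1, as did 45.1% of all tested genes. The median log2 ratio of the list, which is the value of Mir451a itself, was -0.30, against -0.02 over all tested genes. Mir122 had 2.26 times the counts of Mir451a in replicate 1 and 1.37 times in replicate 2. The 3 erythroid log2 ratios had the sign of that of Mir122 and were nearer to 0. Most tested genes were nearer to 0 too: 23 of 364 were as far as Mir122, Mir122 counted. The part of the erythroid genes in the difference at Mir122 was not tested. Neither was the source of the erythroid reads, in liver or elsewhere.

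White-cell markers counted on their own strand showed no common direction with TMM. Of the myeloid and lymphoid list, 5 of 6 genes had a row, all but Mir142, with sums of 1003 and 922 CPM. Mir142b was at 0 on its own strand. Its opposite strand held 5602 reads in replicate 1 and 8434 in replicate 2, which the test on own-strand counts left out. With reads of both strands, which take these in, the sums were 2231 and 2319 CPM, the higher in replicate 2. Of the 4 tested genes only Mir150, known from mature lymphocytes, passed, and as higher in replicate 2 (16.9 and 24.8 CPM, 0.68). The myeloid Mir223 was at 804 and 749 CPM (0.03). With total counts 3 of the 4 passed as higher in replicate 1, Mir150 still as higher in replicate 2. Over all tested genes, 24.5% passed as higher in replicate 2 with TMM. With total counts, 45.1% passed as higher in replicate 1 and 12.6% as higher in replicate 2.

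With TMM, microRNAs that liver shares with gut epithelium were higher in the other library than Mir122. All 6 genes of that list passed as higher in replicate 2 (5 of 6 with total counts, Mir192 not passing). Over all tested genes, 24.5% passed as higher in replicate 2 and 27.5% as higher in replicate 1 (12.6% and 45.1% with total counts). The sum of the list was 33523 CPM in replicate 1 and 46645 CPM in replicate 2. Mir215, which carries nearly the same mature strand as Mir192, led the list with 18486 and 29302 CPM (0.79). Mir192 itself stood at 7516 and 7504 CPM (0.13, and -0.0024 with total counts). At counts as high as those of Mir192 a small ratio passes. Their cluster partners were Mir194-1 at 2685 and 3726 CPM (0.60) and Mir194-2 at 3447 and 4529 CPM (0.52). The gut epithelium list of the miR-200 family and Mir31 also stood higher in replicate 2, at 6 of 6 genes (5 of 6 with total counts, where Mir200c passed as higher in replicate 1). Of the smooth muscle and mesenchyme list, 5 of 7 genes passed as higher in replicate 1, as Mir122 did, and 1 as higher in replicate 2 (6 and 0 with total counts), with a median log2 ratio of -0.14. Its top members Mir143 (0.08), Mir100 (-0.22), Mir214 (-0.12) and Mir145a (-0.14) all lay nearer to 0 than Mir122. So did every other tested gene with a mean of at least 100 CPM. Mir199a-1 and Mir199a-2 were named after their values were seen. Mir199a-1 reached -1.01 from 40 and 24 counts, while Mir199a-2 stood at 0.18 from 346 and 478 counts and did not pass. The part of the epithelial and mesenchymal lists in the difference at Mir122 was not tested.

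The endocrine list was set beside the pancreatic members, because the islets express miR-375 and miR-7, as do endocrine cells of the gut. Its 4 genes summed to 18458 and 16607 CPM, against 1.64 and 4.75 CPM for the acinar genes. Mir375 was at 17643 and 15726 CPM (-0.04), Mir7b at 603 and 658 CPM (0.26), Mir7-1 at 177 and 196 CPM (0.28) and Mir7-2 at 34.5 and 26.2 CPM (-0.27, not passing). With TMM 1 gene passed as higher in replicate 1 and 2 as higher in replicate 2, with total counts 2 and 1. Over all tested genes, 27.5% passed as higher in replicate 1 and 24.5% as higher in replicate 2 (45.1% and 12.6% with total counts). The list median was 0.11 with TMM and -0.02 with total counts. All 4 endocrine ratios were nearer to 0 than that of Mir217. Only 3 of the 364 tested genes, Mir217 counted, were as far from 0 as Mir217, so this says little about the list.

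**Figure D5:**
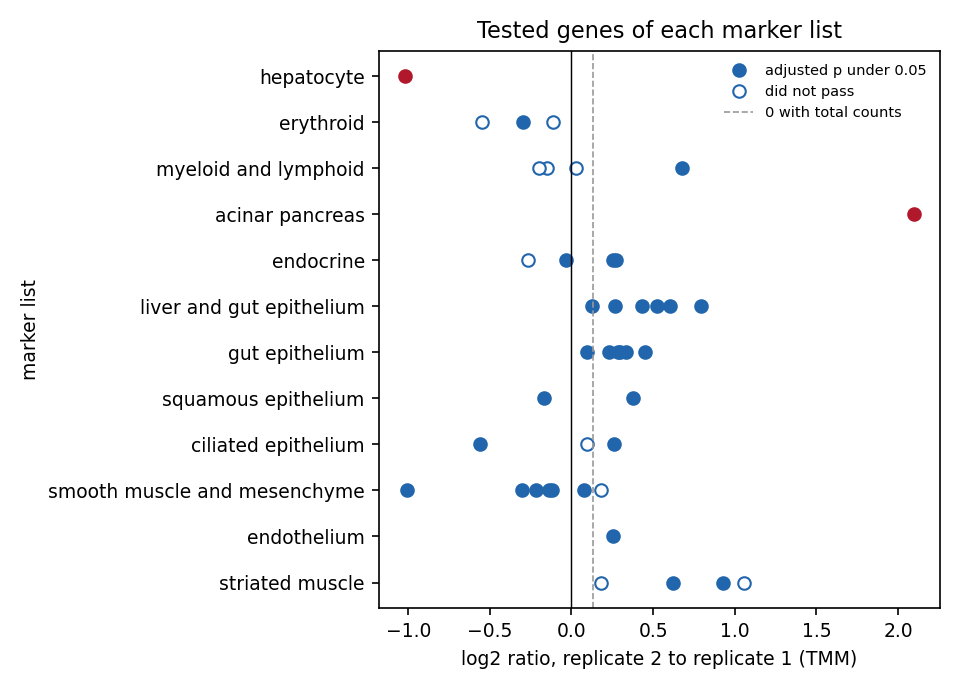
Log2 ratio of replicate 2 to replicate 1 (TMM) for each tested gene of 12 marker lists, filled where the exact test passed, with a dashed line where total counts would put 0. Mir122 (-1.02) and Mir217 (2.10) mark the ends of the plot, with Mir199a-1 (-1.01) close to Mir122, the 3 erythroid genes lie left of 0, and all 6 genes shared by liver and gut epithelium lie right of 0.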

How the data were processed

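The deposited tables hold raw read counts per miRNA gene, unscaled, made by the authors on mm10 with GENCODE M4, per the readme files. Aligner and counter: not given in the sources used here. The table columns carry no names: the columns for the 2 strands added up to the first in all 1973 gene rows, and the one with nearly all reads was used. Reads that name no gene (49.4% and 45.8% of reads) were left out. Symbols and coordinates were taken from GENCODE M21 (also mm10; 1894 of 1973 identifiers matched), and sequences from RefSeq tables (3 of the 4 members matched).

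CPM used the total over all gene rows. Ratios used a prior of 0.5 counts. With 1 library on each side, edgeR's quasi-likelihood test could not be fitted, so an exact two-sided conditional binomial test was used, with TMM effective sizes (edgeR 4.0.16) over genes of at least 20 counts and Benjamini-Hochberg adjustment at 0.05. It was also run on simulated counts that held counting error only, with total sizes in place of TMM. That run cannot show how the test behaves with spread between pools. Alternatives were total counts, DESeq2 1.42.0 size factors, unstranded counts, minimums of 1 and 200 counts, a prior of 2 counts, a 1.5-fold minimum, other totals and each library alone. The Fisher tests between members were added after seeing the data.

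Beside the 4 members, genes were named by rule: up to 4 top members of a marker list, the 2 genes on each side of Mir122 in rank, and the 4 closest in log2 ratio to Mir122 (among genes of at least 100 CPM) and to Mir217 (among all tested genes). The members, 13 marker lists and rules were chosen with earlier results of these data known. Mir146a was matched to the row Mir146 by its RefSeq synonym. Software: Python 3.11.15, scipy 1.17.1, R 4.3.3.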

Additional observations from a re-analysis of the deposited data

Results flagged for a closer look

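Reads on the strand opposite to a gene, which the levels leave out, were above the limit of 3 counts at 5 genes of the marker lists and at none of the 4 liver and pancreas genes. Mir142b, of the myeloid and lymphoid list, had 5602 such counts in replicate 1 and 8434 in replicate 2, against 0 on its own strand. The others were small beside their own-strand counts: 73 and 92 at Mir203, 45 and 46 at Mir126a, and 4 at Mir194-1 in replicate 2. Mir486, an erythroid marker set beside Mir122, had 5 in each library, against 53 and 44 on its own strand.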

How the results depend on the processing

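The log2 ratios of Mir122 and Mir217 kept their direction and passed under each alternative that gave a value: from -1.15 with total counts to -0.98 with no count minimum for Mir122, and from 1.77 with a prior of 2 counts to 2.14 with no count minimum for Mir217, which has too few counts for the minimum of 200. The number of genes past the test was 100 higher in replicate 1 and 89 higher in replicate 2. It became 164 and 46 with total counts, and 31 and 9 with a 1.5-fold minimum. With a single library the level of Mir122 ranged from 448 to 994 CPM, of Mir217 from 0.939 to 4.05, of Mir216a from 0.235 to 0.704 and of Mir216b from 0 to 0.469 CPM. With all reads of a library as the total, the levels were 359, 1.29, 0.241 and 0.114 CPM. No paired analysis was possible because there is 1 group. Depth limits the pancreatic genes, at 34 counts in all.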

Other observations

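Markers of other organs near the gut were also read. Mir202, a miRNA of the gonads, had 2 counts in replicate 1 and 1 in replicate 2, at or below the limit of 3 counts in both. Mir205, known from squamous epithelium of skin and forestomach, was at 839 and 684 CPM, close to Mir122 in level, and Mir203, of similar epithelia, at 6189 and 7334 CPM. Of the ciliated-cell list, Mir34c was at 364 and 355 CPM, Mir449a at 62.6 and 68.7 CPM and Mir34b at 21.6 and 13.4 CPM. Their log2 ratios were 0.09, 0.26 and -0.56, with no common direction. Mir449b and Mir449c were at 0 counts in both libraries. Striated muscle genes with a row summed to 99.2 and 121 CPM, led by the skeletal Mir206 (59.8 and 62.1 CPM). Mir208b stood at 24.9 and 35.0 CPM (log2 ratio 0.62, adjusted p of the exact test 0.000838). Mir499, of heart and slow muscle, stood at 11.3 and 19.7 CPM (log2 ratio 0.93, adjusted p of the exact test 0.000383). These 2 of the 4 tested striated muscle genes passed as higher in replicate 2, as did 24.5% of all tested genes. In the same list Mir133a-1 and Mir133a-2 were at 0 counts in both libraries. Multi-mapping reads are outside the counts, so the sum and the lead of Mir206 hold only for reads that map to 1 place.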
